A study of Mus musculus with 2 samples.

Results

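The 9 genes described here send, receive or break down hormonal signals: Pthlh, Prlr, Ghr, Dio2, Dio3, Thra, Vdr, Rxra and Nr3c1. Their levels were read across states of the mouse hair follicle. They were chosen by symbol, and each symbol named 1 feature, giving 9 of the 31053 features in the count matrices. The working label for the set is hormone receptors and thyroid deiodinases. Pthlh fits neither term, since it encodes a secreted ligand. The data are 2 single-cell RNA libraries made with the 10x 3′ kit, labelled as replicates 1 and 2 of a single group. That group is wild-type mouse skin of strain C57BL/6;CD1 at postnatal day 32, in anagen, when the follicle grows its hair. The hair follicle stem cells had been sorted on CD34, a bulge surface marker, together with H2BGFP, a fluorescent histone expressed from the keratin 14 promoter in basal epithelium. The labels do not say whether the libraries came from separate animals. The p-values therefore measure only how far differences between gates varied between these libraries, a spread that may be technical.

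The hormones behind these genes reach the follicle by different routes. Prolactin and growth hormone bind single-pass receptors (Prlr, Ghr) that act through the kinase Jak2 and STAT proteins, and prolactin is known to delay hair growth in the mouse. Parathyroid hormone-related protein, the product of Pthlh, is made by keratinocytes and acts on neighbouring cells that carry its receptor, Pth1r. Thyroid hormone is switched on inside cells by the deiodinase Dio2 and switched off by the deiodinase Dio3 before it can bind nuclear receptors such as Thra. Vdr, the vitamin D receptor, is known to be needed for hair cycling, and both Vdr and Thra bind DNA together with the retinoid X receptor Rxra. Nr3c1 is the glucocorticoid receptor.

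After removal of barcodes with under 1000 genes or over 10% mitochondrial UMIs, 3918 cells of replicate 1 and 3041 of replicate 2 were kept, with medians of 9955 and 9797 UMIs. A UMI is a tag that marks 1 captured molecule. Follicle states were set by marker gates: a cell entered a gate when the summed UMIs of a short marker list passed a cut. None of the 9 genes is a marker. The 6 non-cycling gates are named for their markers: outer bulge (Krt24, Grem1, Tgm5, Calml3), Gdf10 Nppc, Wfdc18, Fgf5, Edn2 and Krtdap Sostdc1, with a G2/M gate and an S phase gate for cycling cells. A gate is a range of a score, not a cell type. Between 144 and 628 cells lay within 20% of the cut of each of these non-cycling gates, and 1413 and 807 cells fell in no gate. Krt5, a basal keratin, stood between 1360 and 7396 CPM (UMIs of a gene per 1000000 UMIs of the gate) in all 8 gates. Cd34, the sorted marker, was highest in the outer bulge gate among these 8, at 302 and 435 CPM in replicates 1 and 2, and lowest in the Wfdc18 gate, at 14.7 and 23.8 CPM.

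Some gates differed between the libraries before any hormone gene was considered. The outer bulge gate held 31 cells in replicate 1 and 164 in replicate 2, the Krtdap Sostdc1 gate 46 and 159, and the Wfdc18 gate 434 and 154. In replicate 1 the outer bulge cells also had a median Wfdc18 score of 13.1 UMIs per 10000, which is past the cut of 12.4 for that gate. Their median in replicate 2 was 8.48. Some results below are also given without the 2 gates that held under 50 cells in replicate 1, outer bulge and Krtdap Sostdc1. The rest are given only with them. The libraries share 11 barcodes. Summed marker levels of other cell types in the 8 gates were 3.97 to 11.8 CPM for 5 fibroblast markers, at most 6.79 CPM for 5 immune markers and at most 3.46 CPM for 3 mural markers. They reached 19.1 CPM for 4 melanocyte markers (Krtdap Sostdc1 gate, replicate 1) and 18.3 CPM for 3 endothelial markers (G2/M gate, replicate 1).

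Levels are given per library. For tests, UMIs were summed per gate and library and fitted in edgeR, and the quasi-likelihood test was used with p-values adjusted by the Benjamini-Hochberg method over 10793 genes. Each gate was set against the mean log level of the other non-cycling gates. All log2 differences, their standard errors (SE) and adjusted p-values below come from that fit unless said otherwise, and a gene is called at an adjusted p under 0.05. Of the 9 genes, 8 passed the expression filter. Dio2 did not. Pthlh and Dio3 had led clusters in earlier work from which gate markers were drawn, so their values are a description with no test. That leaves 6 tested receptors. All 6 differed among the non-cycling gates, where 40.7% of all genes tested did.

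**Figure D1:**
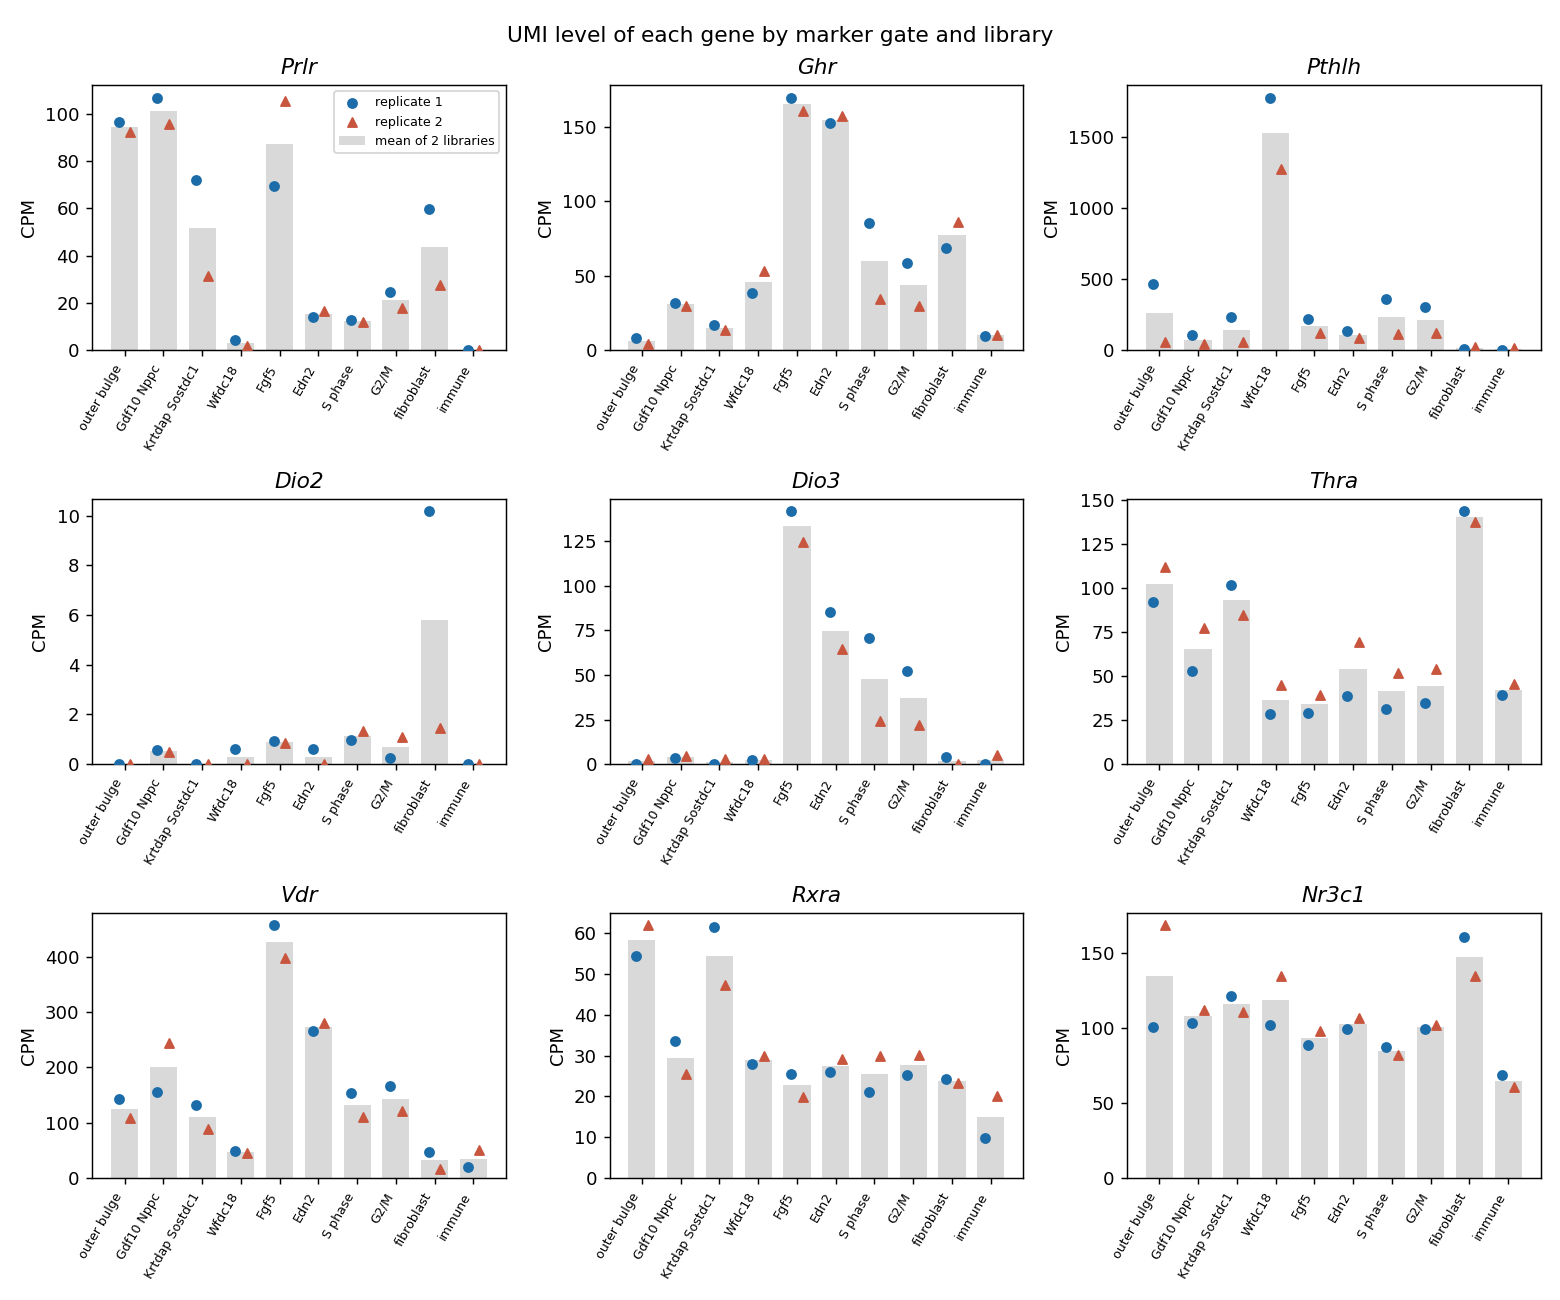
Level of each gene in CPM (vertical axes, each from 0) in 10 marker gates (horizontal axes). Points are the 2 libraries and grey bars their mean. Pthlh is high in the Wfdc18 gate, Dio3, Ghr and Vdr in the Fgf5 and Edn2 gates, and Prlr in the Gdf10 Nppc, outer bulge and Fgf5 gates.

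Promoters of 4 genes are shown because these genes peaked in 2 different gates: Dio3, Vdr and Ghr had their highest mean level in the Fgf5 gate, and Pthlh in the Wfdc18 gate. Each line gives the 250 bases before a start listed by RefSeq (GRCm38.p6), 5′ to 3′ on the gene's strand. Capitals mark matches, on either strand, to GGGCGG (the GC box) or TATAAA (the TATA box). Matches to AGGTCA (the nuclear receptor half-site) and CATTCC (the TEAD site) were also searched for. For Ghr the upstream one of 2 listed starts is shown.
Dio3, chr12:110278980-110279229, plus strand: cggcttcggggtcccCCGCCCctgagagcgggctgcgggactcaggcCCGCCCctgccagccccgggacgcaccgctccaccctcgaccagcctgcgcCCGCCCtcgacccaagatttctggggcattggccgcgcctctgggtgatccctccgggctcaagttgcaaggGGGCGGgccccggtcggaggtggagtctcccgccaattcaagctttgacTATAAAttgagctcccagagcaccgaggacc
Vdr, chr15:97908297-97908546, minus strand: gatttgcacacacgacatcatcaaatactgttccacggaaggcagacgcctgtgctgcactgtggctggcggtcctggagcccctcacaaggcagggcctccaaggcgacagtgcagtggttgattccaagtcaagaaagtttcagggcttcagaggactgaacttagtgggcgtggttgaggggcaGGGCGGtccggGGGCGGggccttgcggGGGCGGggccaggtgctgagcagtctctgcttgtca
Ghr, chr15:3583353-3583602, minus strand: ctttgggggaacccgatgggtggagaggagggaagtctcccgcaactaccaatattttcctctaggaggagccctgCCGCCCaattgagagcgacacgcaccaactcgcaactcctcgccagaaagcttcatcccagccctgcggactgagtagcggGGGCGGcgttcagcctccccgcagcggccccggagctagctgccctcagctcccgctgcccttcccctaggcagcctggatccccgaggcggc
Pthlh, chr6:147264014-147264263, minus strand: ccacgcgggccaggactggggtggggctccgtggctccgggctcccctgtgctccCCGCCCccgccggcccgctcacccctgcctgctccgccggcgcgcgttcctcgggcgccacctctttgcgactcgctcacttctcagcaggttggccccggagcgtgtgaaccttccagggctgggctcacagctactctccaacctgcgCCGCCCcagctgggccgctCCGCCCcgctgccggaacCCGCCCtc

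All 4 windows hold GC boxes: 4 in Dio3, 3 in Vdr, 2 in Ghr and 4 in Pthlh. At least 1 GC box occurs in 32.7% of the 32851 promoters of this length. Of these 4 windows, the one of Dio3 alone holds a TATA box, which starts 31 bases before the listed start. The window of the other listed Ghr start (chr15:3581843-3582092), not printed, holds a TATA box match and no GC box. A match to TATAAA occurs in 12.4% of promoters. Their GC content is 69.6% for Dio3, 61.2% for Vdr, 65.6% for Ghr and 75.2% for Pthlh, against a median of 52.4%. None of the 4 holds AGGTCA, found in 14.0% of promoters, or CATTCC, found in 12.6%. The shared GC boxes therefore do not separate the Pthlh promoter from the other three.

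Pthlh, the ligand, lies on chromosome 6 (147252101 to 147264183, minus strand, GRCm38). Among the 8 gates it was highest in the Wfdc18 gate, with 1777 CPM in replicate 1 and 1274 CPM in replicate 2. Cells in no gate held it as well, at 504 and 239 CPM. The Gdf10 Nppc gate was lowest, at 106 and 42.3 CPM, so the Wfdc18 gate was 16.8 times higher in replicate 1 and 30.1 times higher in replicate 2. All other gates of the 8 had at most 466 CPM in either library, and the Wfdc18 gate did not overlap with any of them. In the Fgf5 gate the level was 219.6 and 123 CPM, and in the Edn2 gate 134 and 87.2 CPM. S phase cells had 363 and 111 CPM and G2/M cells 306 and 119 CPM.

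Pthlh also differed between the libraries in each of the 8 gates, always higher in replicate 1. Over all kept cells it stood at 503 CPM in replicate 1 and 175 CPM in replicate 2. The outer bulge gate differed most, with 466 CPM in replicate 1 and 56.1 CPM in replicate 2. That gate is also the one with 31 cells and a raised Wfdc18 score in replicate 1, and the part of that score in the Pthlh value was not tested. With each cell thinned to 5000 UMIs, a Pthlh UMI was found in 85.7% and 82.4% of Wfdc18 cells in replicates 1 and 2 (unthinned, 92.4% and 87.0%). In immune cells, which should lack the transcript, the thinned share was 0 of 10 cells and 6.67% of 15 cells. Taking 3 cells as the limit for a count of 0, the first allows a share with a UMI of up to 30.0%. Median depth before thinning was 10152 and 12469 UMIs in those immune cells, against 9669 and 8996 UMIs in all cells of the Wfdc18 gate.

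The receptor for that ligand, Pth1r, was nearly absent from follicle cells. Its highest level in any of the 8 gates of either library was 4.19 CPM, and it fell below the expression filter. The fibroblast gate, 65 and 44 cells carried along in the sort, held 78.8 and 157 CPM. Ligand and receptor were thus highest in different gates of the same libraries. Of the 7 other genes listed for this pathway, 5 could be tested and 3 differed among gates, where 40.7% of all genes tested did. The median range of the 5 was 0.57 on the log2 scale against 1.03 for all genes tested. Gli2, a transcription factor of the hedgehog pathway, was lower in the Wfdc18 gate, at 3.43 and 5.30 CPM, by a fitted log2 difference of -1.92 ± 0.44 (SE, adjusted p = 0.00434). Prkar1a, a regulatory subunit of protein kinase A, was higher in the Fgf5 gate by 0.60 ± 0.097 (adjusted p = 0.000234). Crebbp, a histone acetyltransferase that binds CREB, was lower in the Fgf5 gate by a log2 difference of -0.47 (adjusted p = 0.0106).

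Prlr, the prolactin receptor (chromosome 15, 10177238 to 10349180, plus strand), was called higher in 3 non-cycling gates and lower in 2. Its levels in replicates 1 and 2 were 107 and 95.6 CPM in the Gdf10 Nppc gate, 96.5 and 92.2 CPM in the outer bulge gate, and 69.5 and 105 CPM in the Fgf5 gate. The Krtdap Sostdc1 gate had 72.2 and 31.2 CPM, with the widest spread between libraries. The Fgf5 gate overlapped with each of the other 3, so its place among these 4 gates is not resolved. The Gdf10 Nppc and outer bulge gates overlapped with each other, and both lay above the Krtdap Sostdc1 gate without overlap. The Edn2 gate lay far lower, at 13.9 and 16.6 CPM, and the Wfdc18 gate lowest, at 4.44 and 1.99 CPM. The last value rests on 3 UMIs, with an exact Poisson interval of 0.41 to 5.81 CPM. Intervals of this kind cover counting error only.

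Against the other non-cycling gates Prlr was higher in the Gdf10 Nppc gate by 1.85 ± 0.20 on the log2 scale (SE, adjusted p = 1.6e-05). In the outer bulge gate it was higher by 1.78 ± 0.26 (adjusted p = 0.000146) and the Fgf5 gate by 1.48 ± 0.20 (adjusted p = 4.91e-05). The direction held in both libraries for each of the 3 gates. The Wfdc18 gate was lower by a log2 difference of -3.87 ± 0.34 (adjusted p = 6.18e-07), and the Edn2 gate by -1.57 ± 0.30 (adjusted p = 0.00304). With a limit of 5% mitochondrial UMIs, under which the outer bulge and Krtdap Sostdc1 gates drop out, the Edn2 call was lost (adjusted p = 0.149).

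The Fgf5 and Edn2 gates were far apart in Prlr: the Fgf5 gate was 4.98 times the Edn2 gate in replicate 1 and 6.34 times in replicate 2. At 5000 UMIs per cell, a Prlr UMI was seen in 35.9% and 38.6% of Gdf10 Nppc cells (unthinned, 54.0% and 46.4%) but in 1.94% and 1.41% of Wfdc18 cells. No immune cell of either library carried one after thinning, which by the same limit of 3 cells allows shares of up to 30.0% and 20%. In the fibroblast gate the level was 59.7 and 27.8 CPM. Among 12 and 13 cells of an upper follicle gate (Defb6, Krt79, Cst6), too few to enter the fit, the level was 13.0 CPM in replicate 1 and 178 CPM in replicate 2. The counts do not tell the long and short receptor forms apart. A second gene model, Gm21973, overlaps the 3′ end of Prlr on the same strand by 23801 bases and had 0 UMIs in both libraries. How reads in the shared bases were assigned was not tested, so that 0 does not show the Prlr count to be unaffected.

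Ghr, the growth hormone receptor (chromosome 15, 3317760 to 3583492, minus strand), was highest in the Fgf5 and Edn2 gates. Its level was 169.8 and 161 CPM in the Fgf5 gate and 153 and 157 CPM in the Edn2 gate. No other non-cycling gate passed 53.0 CPM in either library. Cells in no gate had 97.4 and 82.9 CPM, so the gene was not confined to those 2 gates. Wfdc18 cells had 38.7 and 53.0 CPM, Gdf10 Nppc cells 31.9 and 29.8 CPM, and Krtdap Sostdc1 cells 17.0 and 13.5 CPM. The outer bulge gate was lowest, with 8.39 CPM (2 UMIs, exact interval 1.02 to 30.3 CPM) and 4.43 CPM (6 UMIs, 1.62 to 9.64 CPM). In the outer bulge Ghr and Prlr were therefore near opposite ends of their ranges.

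Ghr was higher in the Fgf5 gate by 2.49 ± 0.23 on the log2 scale (SE, adjusted p = 7.53e-07) and in the Edn2 gate by 2.37 ± 0.24 (adjusted p = 1.29e-05). It was lower in the outer bulge gate by a log2 difference of -3.24 ± 0.57 (adjusted p = 0.000832) and in the Krtdap Sostdc1 gate by -1.60 ± 0.43 (adjusted p = 0.0325). The last of these calls was lost in the fit without a library term (adjusted p = 0.0525). At 5000 UMIs per cell, 53.1% and 47.6% of Fgf5 cells and 54.9% and 51.6% of Edn2 cells held a Ghr UMI, against 3.45% and 0% (0 of 153) of outer bulge cells and 0% and 6.67% of immune cells. Fibroblast cells held Ghr as well, at 68.6 and 86.3 CPM.

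**Figure D2:**
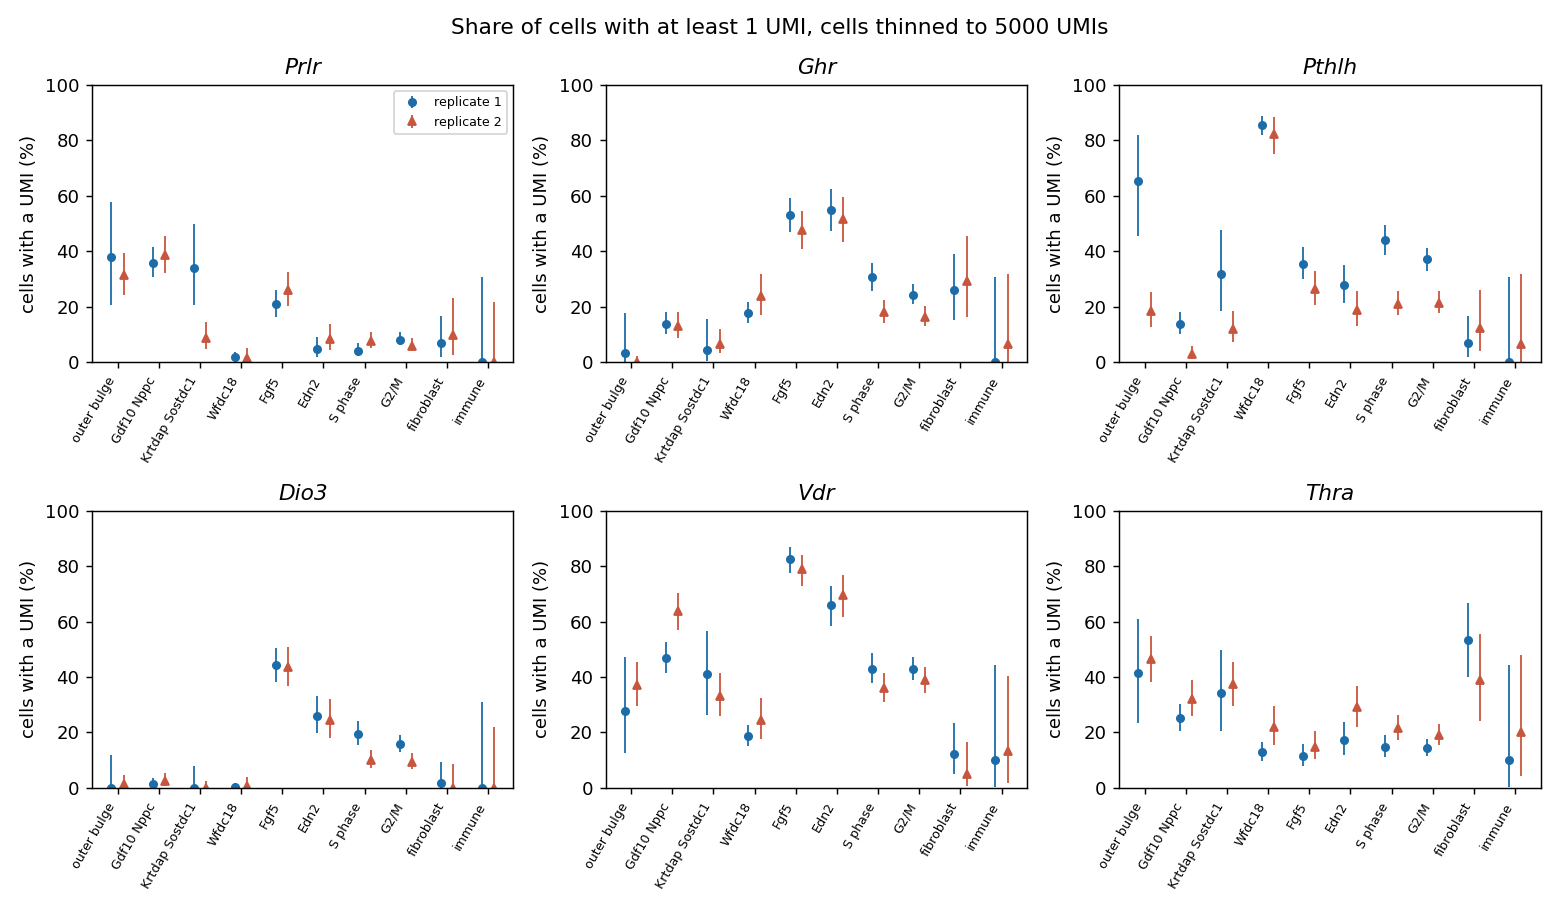
Share of cells with at least 1 UMI of a gene (vertical axes, percent) in 10 marker gates (horizontal axes), after each cell was thinned to 5000 UMIs. Points are libraries and bars exact 95% binomial intervals, which cover counting error only. Ghr lies near 50% in the Fgf5 and Edn2 gates, Dio3 near 44% in the Fgf5 gate and under 3% in the other 4 non-cycling gates besides Edn2.

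Among 10 other genes of prolactin and growth hormone signalling, 9 were tested and 6 differed among gates, where 40.7% of all genes tested did. Their median range was 1.50 on the log2 scale, against 1.03 for all genes tested. Jak2, the kinase bound to both receptors, was higher in the Fgf5 gate by 1.12 ± 0.14 (SE, adjusted p = 2.79e-05), with 45.2 and 42.9 CPM, and in the Gdf10 Nppc gate by 0.52 ± 0.16 (adjusted p = 0.0435). Stat3, a transcription factor downstream of many cytokine receptors, was lower in the Fgf5 gate, at 48.0 and 51.8 CPM, by a log2 difference of -1.20 ± 0.19 (adjusted p = 0.000215). Socs3, a feedback inhibitor of JAK signalling, was higher in the Gdf10 Nppc gate, at 425 and 308 CPM, by 1.11 ± 0.25 (adjusted p = 0.0082). Cish, another feedback inhibitor, was higher in the Wfdc18 gate by 0.88 ± 0.19 (adjusted p = 0.00289), the gate with the lowest Prlr. Socs3 was lower in that gate, by a log2 difference of -1.05 ± 0.30 (adjusted p = 0.0189). Igf1, the growth factor that growth hormone induces in many tissues, reached at most 0.923 CPM in the 8 gates and 193 and 296 CPM in fibroblast cells.

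The 2 deiodinases behaved unlike each other. Dio3, which inactivates thyroid hormone (chromosome 12, 110279068 to 110281097, plus strand), was at 142 and 125 CPM in the Fgf5 gate and at 85.5 and 64.3 CPM in the Edn2 gate. The Fgf5 gate did not overlap with any other gate. In the other 4 non-cycling gates the gene was at most 4.80 CPM in either library: 3.32 and 4.80 CPM in the Gdf10 Nppc gate and 2.22 and 2.65 CPM in the Wfdc18 gate. The Fgf5 gate was 42.7 and 26.0 times the Gdf10 Nppc gate. In replicate 1 no Dio3 UMI was found in 31 outer bulge cells or 46 Krtdap Sostdc1 cells, where 3 UMIs would be 12.6 and 6.37 CPM.

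A Dio3 UMI was present in 44.3% and 43.8% of Fgf5 cells at 5000 UMIs (unthinned, 61.3% and 56.8%), in 26.0% and 24.5% of Edn2 cells, and in 0.485% and 0.704% of Wfdc18 cells. In the immune gate no thinned cell held one, and in the fibroblast gate 1.72% and 0% did. Dio3 was also lower in replicate 2 in cycling cells: the S phase gate had 70.9 and 24.3 CPM and the G2/M gate 52.1 and 22.1 CPM. In both libraries Dio3 thus separated the Fgf5 and Edn2 gates from the other non-cycling gates without overlap.

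Dio2, which activates thyroid hormone (chromosome 12, 90724552 to 90738438, minus strand), had 34 UMIs in all 3918 cells of replicate 1 and 25 UMIs in the 3041 cells of replicate 2. It reached at most 1.32 CPM in the 8 gates of either library, and no UMI was found in the outer bulge or Krtdap Sostdc1 gates. In fibroblast cells it stood at 10.2 CPM in replicate 1 (8 UMIs) and 1.46 CPM in replicate 2 (1 UMI). Differences of Dio2 among follicle gates were not detectable at this depth. Dio1, the third deiodinase, reached at most 0.425 CPM.

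Thra, the thyroid hormone receptor alpha (chromosome 11, 98740638 to 98769006, plus strand), was highest in the 2 gates where Dio3 had its lowest mean level. These were the outer bulge gate, at 92.3 and 112 CPM, and the Krtdap Sostdc1 gate, at 102 and 84.6 CPM. These 2 overlap with each other and with no other gate. The Gdf10 Nppc gate followed at 53.2 and 77.4 CPM, and the Edn2 gate at 38.8 and 69.2 CPM. The Fgf5 gate, with 28.9 and 39.5 CPM, and the Wfdc18 gate, with 28.3 and 45.0 CPM, were lowest and overlapped. The outer bulge gate was 3.19 and 2.84 times the Fgf5 gate.

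Thra was higher in the outer bulge gate by 1.02 ± 0.19 on the log2 scale (SE, adjusted p = 0.00124) and in the Krtdap Sostdc1 gate by 0.69 ± 0.18 (adjusted p = 0.0283). It was lower in the Fgf5 gate by a log2 difference of -0.97 ± 0.17 (adjusted p = 0.000616) and in the Wfdc18 gate by -0.79 ± 0.17 (adjusted p = 0.00348). Without a library term the Krtdap Sostdc1 call (adjusted p = 0.184) and the Wfdc18 call (adjusted p = 0.079) were lost. Thra was also high in fibroblast cells, at 144 and 138 CPM, above every follicle gate.

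The 3′ end of Thra overlaps Nr1d1 on the opposite strand by 1075 bases, and whether counting used the strand is not given in the sources used here, so part of the Thra count is uncertain. Nr1d1 itself, a circadian repressor, had 6.72 and 7.23 CPM over all kept cells and 16.8 and 22.1 CPM in the outer bulge gate. Splice forms of Thra that bind hormone and those that do not cannot be told apart in these counts.

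The wider thyroid list held 15 other genes, of which 11 were tested, with a median range of 1.55. Of these, 5 differed among gates, where 40.7% of all genes tested did. Slc7a8, a transporter of amino acids and thyroid hormone, was highest in the same 2 gates as Dio3: it had 606 and 545 CPM in the Fgf5 gate, 386 and 304 CPM in the Edn2 gate, and 16.8 and 25.1 CPM in the outer bulge gate. Its fitted log2 difference was 2.51 ± 0.15 in the Fgf5 gate (SE, adjusted p = 5.58e-09) and -2.71 ± 0.28 in the outer bulge gate (adjusted p = 6.44e-06). Slc7a8 was also lower in the Krtdap Sostdc1 gate, by -2.16 ± 0.24 (adjusted p = 8.04e-05). Unlike Dio3, which was low in the Gdf10 Nppc gate, Slc7a8 was called higher there, by 1.07 ± 0.16 (adjusted p = 0.000463). Slc16a10, an amino acid transporter that also carries thyroid hormone, was low in the 8 gates but highest in the outer bulge gate. It stood at 8.39 (2 UMIs) and 12.5 CPM there and had no UMI in the Fgf5 or Edn2 gates of either library. By mean level Slc16a10 was thus highest in the gate where Thra was highest, and Slc7a8 in the gate where Dio3 was highest.

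Ncoa1, a receptor coactivator, was higher in the Wfdc18 gate by 0.90 ± 0.16 (SE, adjusted p = 0.000647) and lower in the Edn2 gate by a log2 difference of -1.17 ± 0.23 (adjusted p = 0.00312). Klf9, a transcription factor that responds to both thyroid hormone and glucocorticoids, was higher in the outer bulge gate by 0.76 ± 0.23 (adjusted p = 0.0322) and lower in the Wfdc18 gate by -1.09 ± 0.22 (adjusted p = 0.00162). Thrb, the second thyroid hormone receptor gene, was low: 0 and 2.21 CPM in the outer bulge gate and 8.61 and 8.07 CPM in the Fgf5 gate.

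Vdr, the vitamin D receptor (chromosome 15, 97854425 to 97910630, minus strand), was found in every gate and peaked in the Fgf5 gate, with 458 and 398 CPM. The Edn2 gate came next at 266 and 281 CPM, without overlap. The Gdf10 Nppc gate followed at 156 and 244 CPM. Its neighbours below, the G2/M, S phase, outer bulge and Krtdap Sostdc1 gates, overlapped each other between 88.9 and 166 CPM. The Wfdc18 gate was lowest at 49.0 and 45.7 CPM, apart from all others. The Fgf5 gate was 9.33 and 8.72 times the Wfdc18 gate.

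The fitted log2 difference of Vdr was 1.69 ± 0.15 in the Fgf5 gate (SE, adjusted p = 4.96e-07), 0.90 ± 0.16 in the Edn2 gate (adjusted p = 0.00189) and -2.03 ± 0.21 in the Wfdc18 gate (adjusted p = 2.47e-06). The Krtdap Sostdc1 gate was lower by -0.70 ± 0.20 (adjusted p = 0.0477), and that call was lost without a library term (adjusted p = 0.126), with a stricter gate (adjusted p = 0.0766) and with cells of several gates left out (adjusted p = 0.0953). At 5000 UMIs, 82.4% and 78.8% of Fgf5 cells and 18.7% and 24.6% of Wfdc18 cells held a Vdr UMI, against 10.0% and 13.3% of immune cells and 12.1% and 4.88% of fibroblast cells. The Wfdc18 gate was therefore low for both Vdr and Prlr while holding the most Pthlh.

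Other genes of the vitamin D list mostly fell below the expression filter. Of all genes tested 40.7% differed among gates, and of the 10 listed here 4 were tested and 1 differed. That was Pdia3, a protein disulfide isomerase proposed to bind the hormone at the membrane, which was higher in the Fgf5 gate by 0.46 ± 0.12 (SE, adjusted p = 0.00947). Cyp24a1, the enzyme that breaks down vitamin D and a strongly induced target of Vdr in many tissues, reached at most 0.692 CPM in the 8 gates. Cyp27b1, which makes the active hormone, was at 6.93 and 2.40 CPM in the Gdf10 Nppc gate. Hr, a corepressor of Vdr that is needed for hair regrowth, had 55.4 and 33.5 CPM in the Fgf5 gate and 83.1 and 41.7 CPM in the Wfdc18 gate, higher in replicate 1 in both, and did not pass the joint test. High Vdr in the Fgf5 gate thus stood beside almost no Cyp24a1.

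Rxra, the shared dimer partner of Vdr and Thra (chromosome 2, 27676440 to 27762957, plus strand), followed Thra rather than Vdr in its order. It was highest in the outer bulge gate, at 54.5 and 62.0 CPM, and the Krtdap Sostdc1 gate, at 61.6 and 47.4 CPM, which overlapped. The other 6 gates lay between 19.96 and 33.5 CPM in both libraries. Rxra was higher in the outer bulge gate by 1.03 ± 0.22 on the log2 scale (SE, adjusted p = 0.00339) and lower in the Fgf5 gate by a log2 difference of -0.77 ± 0.19 (adjusted p = 0.00738). In the Fgf5 gate, Vdr was at its highest and Rxra at its lowest mean level of the 8 gates.

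The differences of Rxra rest on the 2 gates with few cells in replicate 1. When the gates with under 50 cells in a library were left out, Rxra no longer differed among the remaining gates (adjusted p = 0.306), and its Fgf5 call was lost (adjusted p = 0.196). The same held at 5% mitochondrial UMIs (adjusted p = 0.527 and 0.434).

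The retinoid list held 21 other genes, with 11 tested and 6 called, against 40.7% of all genes tested, and a median range of 1.17. Crabp2, which carries retinoic acid to its receptor, was higher in the outer bulge gate by 1.89 ± 0.39 (SE, adjusted p = 0.00248) and in the Wfdc18 gate by 1.39 ± 0.29 (adjusted p = 0.00224), and lower in the Fgf5 gate by a log2 difference of -1.95 ± 0.41 (adjusted p = 0.00208). Rarg, a retinoic acid receptor, was highest in the same 2 gates as Rxra: 117 and 112 CPM in the outer bulge gate and 113 and 93.2 CPM in the Krtdap Sostdc1 gate, against at most 61.5 CPM in any other gate. Cyp26b1, which degrades retinoic acid, had 8.39 (again 2 UMIs) and 21.4 CPM in the outer bulge gate and at most 2.22 CPM in the other 7 gates. By mean level the outer bulge gate was thus the highest of the 8 for Rxra, Rarg and Cyp26b1.

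Nr3c1, the glucocorticoid receptor (chromosome 18, 39410545 to 39519421, minus strand), was the most even of the 6 tested receptors. Its level ran from 81.8 CPM in the S phase gate of replicate 2 to 168 CPM in the outer bulge gate of replicate 2, and neighbours in the order of gates overlapped down to the G2/M gate. Its fitted range among non-cycling gates was 0.76 on the log2 scale, below the median of 1.03 for all genes tested. By comparison the range was 4.77 for Prlr, 4.78 for Ghr, 3.09 for Vdr, 1.66 for Thra and 1.50 for Rxra.

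The joint test passed for Nr3c1 (adjusted p = 0.0378) but was lost under 6 of 12 alternatives, with adjusted p from 0.063 to 0.271. In the outer bulge gate Nr3c1 had 101 CPM in replicate 1 and 168 CPM in replicate 2. The fitted difference of 0.52 ± 0.15 (SE, adjusted p = 0.0204) was higher in 1 of the 2 libraries by CPM, and replicate 1 alone gave -0.02. That call was lost under 3 alternatives, with adjusted p from 0.069 to 0.688. In the Fgf5 gate, at 88.3 and 97.7 CPM, the difference was -0.38 ± 0.13 (adjusted p = 0.0414), and 7 of 12 alternatives lost that call.

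Genes of the glucocorticoid list varied more than the receptor. Of 15, 13 were tested and 9 differed, against 40.7% of all genes tested, with a median range of 1.42. Tsc22d3, a classic glucocorticoid-induced gene, was at 21.0 and 42.8 CPM in the outer bulge gate and 1.85 and 1.70 CPM in the Fgf5 gate. Its log2 difference was 2.49 ± 0.29 (SE, adjusted p = 2.1e-05) in the first and -2.84 ± 0.38 (adjusted p = 4.04e-05) in the second. Sgk1, a kinase induced by glucocorticoids and serum, was higher in the Gdf10 Nppc gate by 1.09 ± 0.10 (adjusted p = 4.2e-06), at 677 and 554 CPM, and lower in the outer bulge gate by -1.08 ± 0.14 (adjusted p = 3.95e-05). Dusp1, a phosphatase also induced by cell stress, was higher in the outer bulge gate by 1.04 ± 0.22 (adjusted p = 0.00318), with 1195 CPM in replicate 1 and 322 CPM in replicate 2. Members of this list called in the outer bulge gate did not share a direction. There 3 were higher and 1 lower, against 9.77% and 8.06% of all genes tested. The Edn2 gate was also mixed, with 1 higher and 1 lower. Called members did share a direction in the other non-cycling gates. The Gdf10 Nppc gate had 5 higher and 0 lower, against 7.99% and 2.001% of all genes tested. The Wfdc18 and Fgf5 gates each had 0 higher and 3 lower, and the Krtdap Sostdc1 gate 2 higher and 0 lower.

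**Figure D3:**
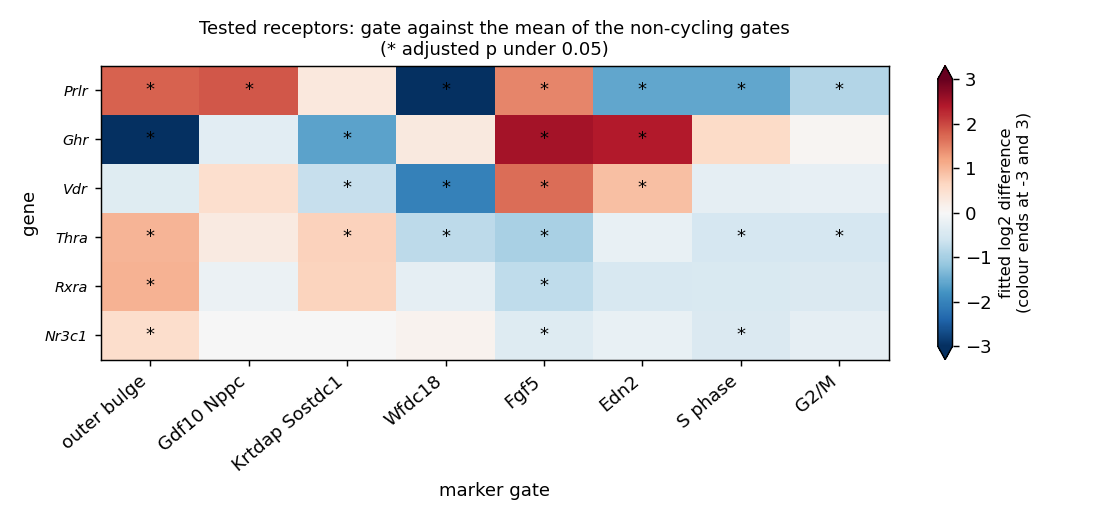
Fitted log2 difference of the 6 tested receptors (rows) in each of 8 gates (columns) against the mean of the non-cycling gates, as colour from blue (lower) to red (higher), with the colour ending at -3 and 3. Asterisks mark an adjusted p under 0.05. The Fgf5 column has an asterisk for all 6 receptors, 3 higher and 3 lower.

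Read by gate, the Fgf5 gate differed for all 6 tested receptors: Prlr, Ghr and Vdr were higher and Thra, Rxra and Nr3c1 lower. Of all genes tested, 13.8% were higher and 10.6% lower there. The outer bulge gate had 4 higher (Prlr, Thra, Rxra, Nr3c1) and 1 lower (Ghr), against 9.77% and 8.06% of all genes. In the Wfdc18 gate 3 were lower (Prlr, Thra, Vdr) and none higher, against 8.31% and 12.8%. Ghr was called lower there too when gates under 50 cells in a library were left out (log2 difference -1.06, adjusted p = 0.0151). In the Edn2 gate Ghr and Vdr were higher and Prlr lower, against 6.83% and 4.55%. The Krtdap Sostdc1 gate had Thra higher and Ghr and Vdr lower, against 4.26% and 2.70%. In the Gdf10 Nppc gate Prlr alone of the 6 was called, as higher, against 7.99% of all genes higher and 2.001% lower. With gates under 50 cells left out, Ghr was called lower there (log2 difference -1.65, adjusted p = 0.00246) and Thra higher (0.81, adjusted p = 0.000455). Vdr stood at 0.50 in that gate in the reported fit (adjusted p = 0.0677). It was called higher with the highest Scrublet scores left out (adjusted p = 0.0337), a looser gate (adjusted p = 0.027) or no expression filter (adjusted p = 0.00151). The reported fit made 21 calls in the 36 pairs of a tested receptor and a non-cycling gate.

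In cycling cells no tested receptor was called higher, except Ghr in S phase when no expression filter was used (log2 difference 0.63, adjusted p = 0.00133). Against the non-cycling gates, Prlr was lower in the S phase gate, at 12.9 and 11.9 CPM, by a log2 difference of -1.55 ± 0.25 (SE, adjusted p = 0.000262). In the G2/M gate it had 24.6 and 17.9 CPM, lower by -0.87 ± 0.22 (adjusted p = 0.00759). Thra was lower by -0.50 in G2/M (adjusted p = 0.0214) and by -0.51 in S phase (adjusted p = 0.0264), and Nr3c1 by -0.43 in S phase (adjusted p = 0.0218). That is 2 of 6 receptors lower in G2/M, where 9.95% of all genes were lower and 15.1% higher, and 3 of 6 in S phase, where 7.70% were lower and 15.4% higher. When gates with under 50 cells in a library were left out of the reference, the G2/M calls of Prlr (adjusted p = 0.124) and Thra (adjusted p = 0.3) and the S phase call of Thra (adjusted p = 0.287) were lost, and Ghr became a call as lower in G2/M (log2 difference -0.94, adjusted p = 0.0133) and Vdr as lower in S phase (-0.50, adjusted p = 0.0458). Without a library term both Thra calls were lost too (adjusted p = 0.248 and 0.253). The Nr3c1 call was lost under 4 alternatives, with adjusted p from 0.0594 to 0.221. With a looser gate Nr3c1 was called lower in G2/M (adjusted p = 0.0391). Rxra was not called in the reported fit (adjusted p = 0.0644 in G2/M and 0.067 in S phase). In S phase it was called lower with a stricter gate (adjusted p = 0.0199) or the first marker of each gate left out (adjusted p = 0.0376). With 2000 or more genes per barcode it was called lower in both (adjusted p = 0.0462 and 0.0405). Ghr and Vdr in cycling cells lay between their non-cycling extremes: Ghr had 85.5 and 34.3 CPM in S phase, higher in replicate 1, and Vdr 153 and 111 CPM.

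**Figure D4:**
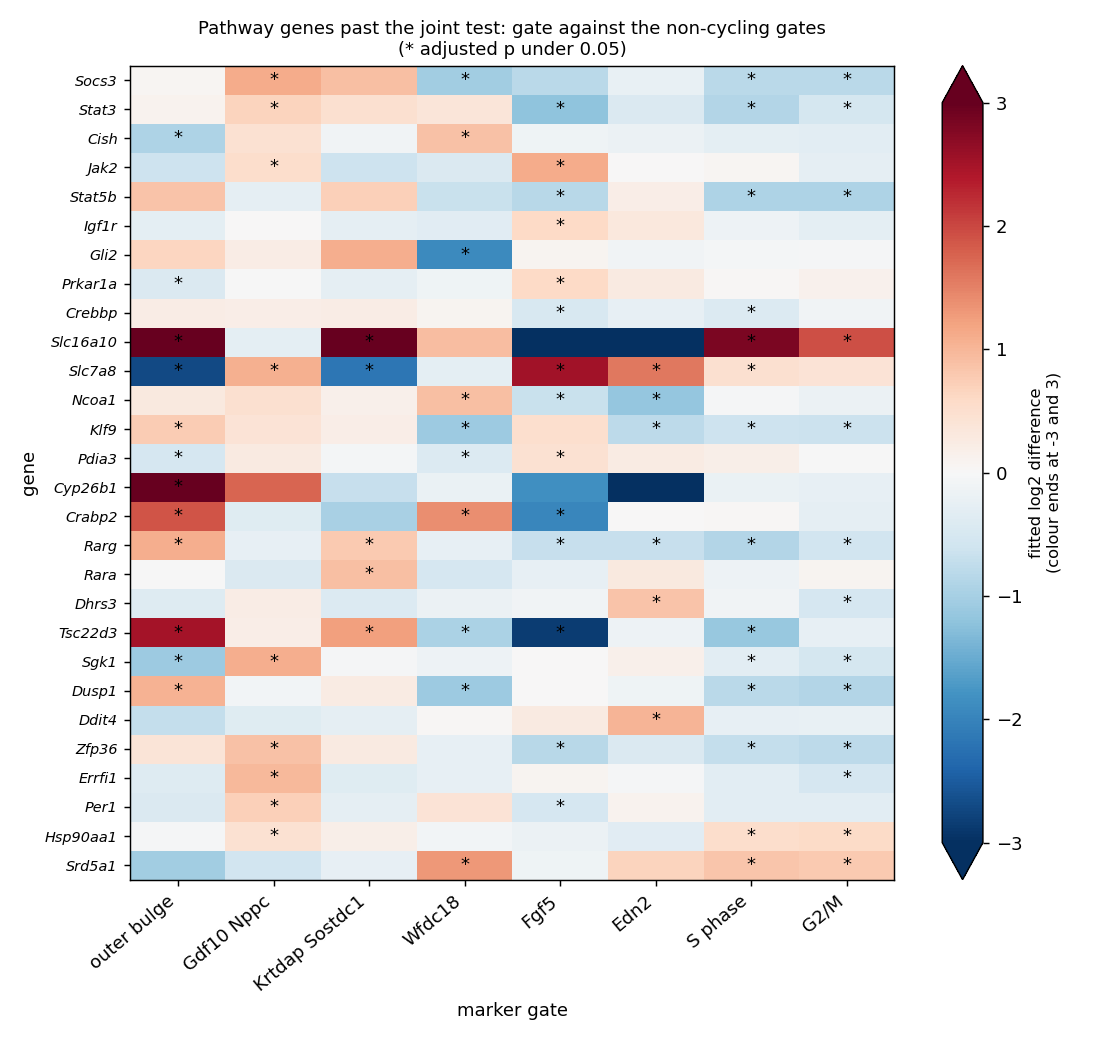
Fitted log2 difference of other hormone pathway genes that differed among non-cycling gates (rows), in each of 8 gates (columns), against the mean of the non-cycling gates. Colour runs from blue (lower) to red (higher) and ends at -3 and 3, and asterisks mark an adjusted p under 0.05. The plot holds 28 genes, and in it Slc7a8 is red in the Fgf5 gate and blue in the outer bulge gate, and Tsc22d3 the reverse.

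Over all 7 pathway lists there were 83 different genes, of which 82 were in the files, 53 were tested and 31 differed among the non-cycling gates, where 40.7% of all genes tested did. Their median range was 1.42 on the log2 scale, against 1.03 for all genes tested. The last list, for sex steroids, had 7 genes with 2 tested and 2 called. Srd5a1, which makes the more potent hormone dihydrotestosterone, was higher in the Wfdc18 gate, at 53.1 and 70.2 CPM, by 1.31 ± 0.23 (SE, adjusted p = 0.000505). Esr1, the oestrogen receptor alpha, reached at most 0.202 CPM.

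The genes whose pattern was most like each member were found by Pearson's r of log2 CPM, centred within each library, over the 16 sums of 8 gates and 2 libraries. The points share libraries and depth, so r is a description. Ghr was most like Serinc2 (r = 0.973), Rap2c (r = 0.972) and Sct (r = 0.967). Dio3 was most like Upk1b (r = 0.973), Olfml2b (r = 0.971) and Acer3 (r = 0.966), and Vdr like Spred1 (r = 0.972), Rsu1 (r = 0.970) and Rcn2 (r = 0.946). Prlr was most like Actr3 (r = 0.948), and Pthlh like Foxn1 (r = 0.919), a transcription factor known from the nude mouse. Thra was most like Atf7 (r = 0.961), Rxra like 2010111I01Rik (r = 0.967) and Nr3c1 like Upb1 (r = 0.920).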

How the data were processed

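Single-cell RNA counts of 2 libraries of 1 group were analysed, with replicate numbers as labelled. The deposited matrices hold UMI counts, whole numbers per gene and barcode with no normalization; per the submitters' processing notes they came from Cell Ranger 3.1.0 on mm10, and Seurat 3.1 was used afterwards. Gene models and strand setting: not given in the sources used here. Members and lists were chosen with earlier results of these data known, and patterns already seen there are not independent support.

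Replicate 1 had 6592 barcodes with 52344178 UMIs and replicate 2 had 5080 with 38678103. Kept cells held 43731597 and 34571424 UMIs, with 1723 to 97873 UMIs per cell. No doublet was called by Scrublet's automatic threshold, which therefore did not work here. An alternative left out the highest scores (255 and 139 barcodes). Gate scores were summed marker UMIs per 10000. The cut was the larger of 3 and the pooled 85th percentile, with at least 2 markers detected (3 for cycling gates). The rule was set after marker levels were seen. Markers of fibroblast, immune, endothelial, melanocyte and mural cells took precedence, then G2/M, then S phase. A cell in several gates went to the one 2 times further past its cut (283 cells) and was otherwise left out (147 and 221 cells). Gates needed 20 cells in each library. Upper follicle and inner root sheath gates had fewer.

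UMI sums of 8 gates in 2 libraries (16 sums) were fitted in edgeR 4.0.16 (R 4.3.3) with TMM scaling, filterByExpr, gate and library terms, leaving 7 residual degrees of freedom. The fit was tested on simulated data. DESeq2 1.42.0 served as an alternative. The reference of a contrast is a mean of log levels, so a gate near 0 lowers it. CPM intervals are exact Poisson and shares exact binomial, both at 95%. The limit given for a count of 0 is 3 counts of the total; it bounds cells with a UMI, not cells expressing the gene. Pathway genes named are those with the largest range in their list among genes passing the joint test (up to 4), with partners of the 9 genes. Igf1, Dio1, Thrb, Hr, Cyp24a1, Cyp27b1 and Esr1 were named outside that rule for their known roles, with values seen. A few genes that the rule selects are not reported here, though the counts include them. Coordinates are from GENCODE M21 (GRCm38). RefSeq's promoter table (GRCm38.p6) was read for 7 of the 9 genes. It has no entry for Thra, and Nr3c1 was not looked up. Apart from the Pthlh and Ghr levels of cells in no gate, ungated cells and the 3 rarest other cell types were not analysed further here.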

Additional observations from a re-analysis of the deposited data

How the results depend on the processing

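The reported fit gave 32 calls for the 6 tested receptors. Over 12 alternatives with a test there were 368 values for them: 327 kept direction and call, 41 kept direction and lost the call, and 0 changed direction. Of 64 values from a single library, 63 kept direction. Both sets of values include the 6 calls of the joint test. Their value is a range of log2 levels, which cannot change direction, so for these calls a kept direction tells nothing. Nr3c1 in the outer bulge gate changed sign, from 0.589 without replicate 1 to -0.0204 without replicate 2. Without the replicate block (the library term), receptors called in G2/M fell from 2 to 1 and in S phase from 3 to 1. The block pairs gates of the same library. At 5% mitochondrial UMIs, where 2 gates drop out, the calls were 1 in G2/M, 1 in S phase, 12 over gate pairs (21 of 36 pairs in the reported fit), and 2546 genes in the joint test (4393 in the reported fit). With fewer gates there were fewer pairs to call, and the joint test compared fewer gates. These counts are therefore not on the same scale as those of the reported fit. Leaving out gates with under 50 cells, chosen after seeing the data, gave 1 in G2/M, which was Ghr and not a call of the reported fit. Over these alternatives 19 calls, in 11 pairs of a receptor and a gate, were gained. Fewer gates were fitted in both of these; the cause of the other losses was not tested.

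Shares of cells with a UMI depend on depth by construction. As means of the 2 libraries, unthinned and then thinned to 3000 UMIs, they were 50.2% and 25.4% for Prlr in the Gdf10 Nppc gate, 75.6% and 38.3% for Ghr, 59.1% and 30.0% for Dio3 and 92.0% and 65.9% for Vdr in the Fgf5 gate, 89.7% and 78.1% for Pthlh in the Wfdc18 gate, and 54.7% and 29.8% for Thra, 36.3% and 19.8% for Rxra and 60.9% and 31.6% for Nr3c1 in the outer bulge gate. With a stricter gate, Prlr in the Gdf10 Nppc gate was 110.5 CPM instead of 101. Depth limits Dio2, with 34 and 25 UMIs, and the 31 outer bulge cells of replicate 1.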
